A study of Mus musculus with 5 samples.

Results

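Cd14, Tlr2, Tlr4, Lcn2, Saa3, Pigr, Slpi, Lyz2, Icam1 and Tnfaip3 are 10 mouse genes of bacterial sensing, the acute phase and mucosal defence, taken from the 52029 genes of a sequencing study of hepatobiliary organoids. They were picked by symbol with earlier results of these libraries in view, so their differences between the groups are described with standard errors and no p-value of their own; which of them the test over all genes called is given as a description only. All 10 were found in both deposited tables and all 10 passed the filter on low counts. Hepatobiliary organoids are self-renewing epithelial cultures, grown here from wild-type stem/progenitor cells of primary mouse liver in a medium with EGF, nicotinamide, heparin, endothelial cell growth supplement and the ROCK inhibitor Y-27632. One group was organoids alone, with no added cells, at passage 1 and day 10 (2 libraries, M11 and M12). The other was organoids cultured together with liver endothelial cells at passage 8 and day 10 (3 libraries: M9, M10, and the third library, which has a table of its own). Treatment and passage coincide, so the effect of endothelial cells and that of passage cannot be told apart. The labels do not say whether the libraries of a group came from separate cultures or whether endothelial cells were removed before RNA was isolated, so the spread between libraries may be technical.

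Most of these genes act where epithelium meets microbes. CD14 hands bacterial lipopolysaccharide to Toll-like receptor 4, while Toll-like receptor 2, paired with Toll-like receptor 1 or 6, recognises bacterial lipopeptides. Both receptors signal to NF-kappaB, a transcription factor that induces acute-phase proteins such as lipocalin 2 and serum amyloid A3, the adhesion molecule ICAM1, and A20 (Tnfaip3), which in turn restrains the pathway. Bile duct epithelium also carries the polymeric immunoglobulin receptor (Pigr), which moves IgA into bile, and mucosal epithelia release the antiprotease SLPI and lysozymes.

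Promoters are shown here because several of these genes are textbook NF-kappaB or C/EBP targets. RefSeq promoter windows (GRCm38.p6) were matched for 8 of the 10 genes, all but Cd14 and Tlr4, and the 250 bases before each start were searched on both strands for 4 motifs. The NF-kappaB consensus of 10 bases was found at Tlr2 and Tnfaip3 and in 7.25% of 32851 windows. The shorter NF-kappaB-type motif GGAANTTCC was found at Icam1, Tnfaip3 and Lyz2 and in 0.81% of windows. The C/EBP-type motif TTGCNNAA was found at Lcn2, Slpi and Saa3 and in 9.56% of windows. The AP-1-type motif TGANTCA was found at Tnfaip3 alone among the 8 and in 6.75% of windows. No match of the 4 was found in the Pigr window. Capitals below mark the matches, and bases of annotated exons are left out of each stretch. The first 4 stretches hold NF-kappaB-type or AP-1-type matches and the last 2 a C/EBP-type match.
Tlr2 (GRCm38, chr3:83841768-83841858, minus strand): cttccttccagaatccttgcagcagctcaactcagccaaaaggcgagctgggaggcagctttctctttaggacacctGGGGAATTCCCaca
Icam1 (GRCm38, chr9:21015731-21015850, plus strand): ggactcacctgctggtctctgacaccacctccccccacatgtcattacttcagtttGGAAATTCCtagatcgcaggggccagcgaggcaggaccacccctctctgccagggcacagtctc
Tnfaip3 (GRCm38, chr10:19015411-19015547, minus strand): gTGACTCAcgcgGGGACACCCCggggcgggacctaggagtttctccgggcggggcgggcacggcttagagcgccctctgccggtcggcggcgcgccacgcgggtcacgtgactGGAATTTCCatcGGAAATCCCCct
Lyz2 (GRCm38, chr10:117282322-117282441, minus strand): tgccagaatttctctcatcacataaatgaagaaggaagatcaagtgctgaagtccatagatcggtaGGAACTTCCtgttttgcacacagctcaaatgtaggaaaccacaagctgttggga
Saa3 (GRCm38, chr7:46715712-46715831, minus strand): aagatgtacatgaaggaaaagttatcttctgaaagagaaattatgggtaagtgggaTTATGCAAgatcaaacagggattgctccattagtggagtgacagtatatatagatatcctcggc
Slpi (GRCm38, chr2:164356638-164356757, minus strand): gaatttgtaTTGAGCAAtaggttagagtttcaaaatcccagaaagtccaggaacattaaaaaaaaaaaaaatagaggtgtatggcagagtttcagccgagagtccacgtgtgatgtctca
The Tlr2 stretch carries a pair of overlapping consensus matches, the outer bases lying at -173 and -163 from the start. In the Tnfaip3 stretch, GGAATTTCC lies at -24 to -16 and GGAAATCCCC at -12 to -3, next to the start. The Icam1 match lies at -153 to -145 and the Saa3 match at -99 to -92. A match says only that these letters occur in the window.

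The 5 libraries held 26466739 to 58853737 counts, the third co-culture library being the deepest. All 12 cholangiocyte and progenitor markers were detected in every library, so the defining markers of the labelled epithelium were present. Their summed level was 14910 (M11) and 19620 CPM (M12) alone, CPM being counts brought to one library size across the 5 libraries. In co-culture it was 30410 (M9), 25500 (M10) and 13360 CPM (the third library). In M9 and M10, 8 of the 12 had a higher fitted level and 4 a lower one. Krt7, Krt19 and Prom1 were called higher in M9 and M10 (adjusted p = 0.0303, 0.0436 and 0.0264, edgeR). The third library, however, was below both libraries alone for Krt7 (842.5 CPM against 1408 and 1522) and Krt19 (1315 against 1747 and 2265). For Prom1 it was above both (967.6 CPM against 372.2 and 419.9). With all 5 libraries in one fit none of these was called (adjusted p = 0.696, 0.666 and 0.207, edgeR). Markers of endothelium were sparse in the co-cultures: Pecam1 had 2 (M9), 2 (M10) and 10 counts (the third library), and Cdh5 had 6, 5 and 19. The summed level of 24 endothelial markers was 157 to 173 CPM alone and 90.5 to 111 CPM in co-culture, the largest part from Flt4 or Ptprb. Of 10 tested endothelial markers, 4 had a higher fitted level in M9 and M10 and 6 a lower one. The 2 called went in opposite directions, Flt4 lower (-2.22 ± 0.18, adjusted p = 0.0106, edgeR) and Ptprb higher (2.17 ± 0.19, adjusted p = 0.0137, edgeR). Flt4 had 137 and 128 CPM alone and 25.0 (M9), 32.4 (M10) and 90.15 CPM (the third library) in co-culture. Ptprb had 9.85 and 9.67 CPM alone and 46.0 (M9), 42.6 (M10) and 10.4 CPM (the third library) in co-culture, so the third library showed little rise. Of 31 macrophage and other leukocyte markers, between 11 and 24 had no count in a given library, and the macrophage markers Adgre1 and Clec4f had none in any. The sum of 14 mesenchymal markers was 40.4 to 106 CPM alone and 17.3 to 40.2 CPM in co-culture, where Reln gave 89.9% of it in M9 and 89.8% in M10. Of 9 tested mesenchymal markers 8 were lower in M9 and M10, 2 of them called: Rgs5 (-3.50 ± 0.51, adjusted p = 0.0354, edgeR) and Col3a1 (71 and 351 counts alone, 0 in M9, 1 in M10, adjusted p = 0.0371). The part of mesenchymal RNA in the values of the 10 genes was not tested. The sum of 10 hepatocyte markers was 815 to 819 CPM alone and 728 to 1127 CPM in co-culture, mostly Apob and Hnf4a. Of 6 tested hepatocyte markers, 4 had a higher fitted level in M9 and M10 and 2 a lower one, with a median log2 fold change of 0.65. Only 1 was called, the albumin gene Alb, which fell. In the third library 5 of the 6 lay above the mean log2 level of the organoids alone. In bulk RNA, fewer cells of a type and less RNA per cell cannot be told apart.

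In M9 and M10 all 10 genes had a lower fitted level than in the organoids alone, by a median of -1.52 on the log2 scale, against a median of 0.00 over the 15899 genes tested. For 8 of the 10, all but Pigr and Tnfaip3, both M9 and M10 lay below both M11 and M12, which held for 25.1% of all genes tested. Lcn2, Cd14, Icam1 and Lyz2 were among the genes called at an adjusted p under 0.05 by edgeR's quasi-likelihood test, where 2.24% of all genes were called, 1.25% lower and 0.994% higher. None of the 10 was called higher. Because these same values led to the choice of the genes, neither count is evidence about the group. The third co-culture library was above both M9 and M10 for 7 of the 10 genes, between them for Slpi, and below both for Lyz2 and Tnfaip3.

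**Figure D1:**
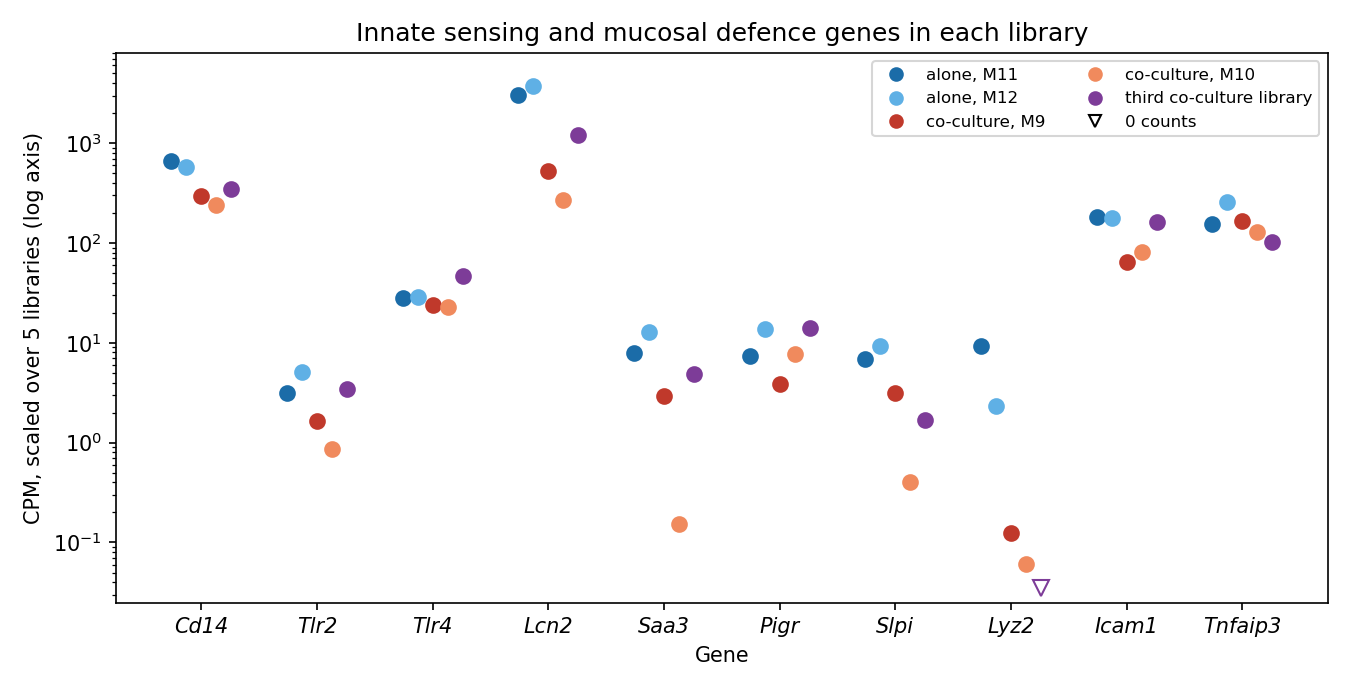
CPM of each gene in the 5 libraries, on a log axis; each point is 1 library and the open triangle marks 0 counts. Lcn2 runs from 267 CPM in M10 to 3730 CPM in M12, the 2 libraries alone lie above M9 and M10 for 8 of the 10 genes, and Tlr4 is highest in the third co-culture library at 46.9 CPM.

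Among the receptors, Cd14 was by far the most abundant. Organoids alone held 658 CPM (M11) and 582 CPM (M12) of Cd14, the co-cultures 294 (M9), 241 (M10) and 349.6 CPM (the third library). All 3 co-culture libraries lay below both libraries alone, and the groups did not overlap. From 620.1 ± 53.9 CPM alone to 268 ± 37.8 CPM in M9 and M10 (SD, n = 2 each), the fitted log2 fold change was -1.22 with a standard error of 0.17, and the third library differed by -0.82 from the mean of the organoids alone. Cd14 (ENSMUSG00000051439) lies on the minus strand of chromosome 18 from 36725067 to 36726798 in GRCm38.

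Tlr4, which signals for the lipopolysaccharide that CD14 presents, was spread over a narrow range except in the third library. Its level alone was 28.4 CPM (M11) and 28.7 CPM (M12), against 23.7 (M9), 22.8 (M10) and 46.9 CPM (the third library) in co-culture. M9 and M10 were thus slightly lower than the libraries alone, with a fitted log2 fold change of -0.30 ± 0.18 (SE). The third library was higher than all of them, and lay 0.72 above the mean of the organoids alone on the log2 scale. With all 5 libraries in one fit the sign of the Tlr4 difference turned, to 0.13. Tlr4 (ENSMUSG00000039005) lies on chromosome 4, plus strand, 66827584 to 66930284.

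Tlr2 had the lowest mean CPM of the 10 in the organoids alone, though Lyz2 was lower in M12. It had 80 counts (M11) and 142 counts (M12) alone and 53 (M9), 28 (M10) and 200 (the third library, the deepest) in co-culture. Scaled to CPM, the libraries alone held 3.12 and 5.14, M9 and M10 held 1.67 and 0.86, and the third library, at 3.45, lay between M11 and M12. The fitted log2 fold change for M9 and M10 was -1.72 ± 0.53 (SE), and the third library differed by -0.21. Tlr2 (ENSMUSG00000027995) lies on chromosome 3, minus strand, 83836272 to 83841767, where the stretch with the overlapping NF-kappaB matches precedes it.

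Partners of these receptors were present at uneven levels. Ly96, the MD-2 subunit that Tlr4 needs to bind lipopolysaccharide, had 3.23 CPM (M11) and 3.80 CPM (M12) alone and 3.08 (M9), 3.10 (M10) and 2.73 CPM (the third library) in co-culture. Lbp, the serum protein that loads lipopolysaccharide onto CD14, had 259 CPM (M11) and 200.3 CPM (M12) alone and 202 (M9), 408 (M10) and 494 CPM (the third library) in co-culture. Neither passed the test (adjusted p = 0.843 and 0.627, edgeR). Tlr1, a partner of Tlr2, had 6 counts in each library alone and 34, 63 and 42 counts in the co-cultures, a log2 fold change of 2.70 ± 0.60 that did not pass (adjusted p = 0.0918, edgeR). Tlr6, the other partner, had 0 and 3 counts alone and 4, 17 and 4 counts in co-culture and was not tested. Tlr2 shares 50.8% of aligned coding bases with Tlr1 and 50.4% with Tlr6.

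Lcn2, which encodes lipocalin 2, a protein that starves bacteria by binding their iron siderophores, had the highest CPM of the 10 in every library. Organoids alone held 3017 CPM (M11) and 3730 CPM (M12), and the co-cultures 529.9 (M9), 267 (M10) and 1207 CPM (the third library). All 3 co-culture libraries were below both libraries alone, and they spread more widely than the organoids alone did. The fitted log2 fold change was -3.09 ± 0.36 (SE), from 3373 ± 504 to 398 ± 186 CPM (SD, n = 2 each), and the third library differed by -1.48. Ranked among 19543 protein-coding genes by CPM per kilobase of merged exons, a level per length, Lcn2 was gene 11 of M11 and of M12, 204 of M9, 414 of M10 and 32 of the third library. It took 0.293% and 0.353% of all counts alone, and 0.0498% (M9), 0.0242% (M10) and 0.119% (the third library) in co-culture. Lcn2 (ENSMUSG00000026822) lies on chromosome 2, minus strand, 32384633 to 32388252.

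Saa3, an inducible serum amyloid A made outside the liver as well as in it, separated M9 from M10. Organoids alone had 203 counts (M11) and 358 counts (M12), or 7.91 and 12.97 CPM. The co-cultures had 94 (M9), 5 (M10) and 284 counts (the third library), or 2.95, 0.154 and 4.90 CPM. M9 was 19.2 times as high as M10, a wider gap than between any library alone and M9. The fitted log2 fold change of -2.75 ± 1.10 (SE) depended on which of them was kept: it was -6.06 without M9 and -1.82 without M10. The third library, at a difference of -1.04, was below both libraries alone. Saa3 (ENSMUSG00000040026) lies on chromosome 7, minus strand, 46711998 to 46715700. The hepatocyte forms Saa1 and Saa2, which share 74.3% and 72.7% of aligned coding bases with Saa3, had 22 and 7 counts in M9 and no more than 2 in any other library, and neither was tested.

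Slpi, the secretory leukocyte protease inhibitor, was also unevenly spread over the co-culture libraries, M9 being 7.95 times as high as M10. Alone, it had 176 counts (M11) and 255 counts (M12), or 6.85 and 9.24 CPM, and in co-culture 101 (M9), 13 (M10) and 98 counts (the third library), or 3.17, 0.399 and 1.69 CPM. All 3 co-culture libraries were below both libraries alone. The fitted log2 fold change was -2.17 ± 0.88 (SE), -4.33 without M9 and -1.34 without M10, and the third library differed by -2.20. Slpi (ENSMUSG00000017002) lies on chromosome 2, minus strand, 164354070 to 164389095. Wfdc2, another protein with whey acidic protein domains, had 323 CPM (M11) and 396 CPM (M12) alone and 450.5 (M9), 488 (M10) and 405 CPM (the third library) in co-culture, and did not pass the test (log2 fold change 0.37 ± 0.17, adjusted p = 0.329, edgeR).

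Pigr, the receptor that carries polymeric IgA across bile duct epithelium, overlapped between the groups. Organoids alone had 7.44 CPM (M11) and 13.7 CPM (M12), the co-cultures 3.90 (M9), 7.68 (M10) and 14.1 CPM (the third library). M10 lay above M11, and the third library was the highest of the 5. The fitted log2 fold change was -0.89 ± 0.47 (SE), which became -0.38 without M12 and -1.44 without M10, and the third library differed by 0.47. Pigr (ENSMUSG00000026417) lies on chromosome 1, plus strand, 130826684 to 130852249.

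Lyz2, the lysozyme of macrophages and other myeloid cells, had the largest fitted difference of the 10 and the fewest counts over the 5 libraries. Organoids alone had 240 (M11) and 63.94 (M12) estimated counts, and the co-cultures 4 (M9), 2 (M10) and 0 (the third library). M11 was 4.03 times as high as M12 in CPM, 9.35 against 2.32, so the libraries alone differed widely among themselves while both stayed above every co-culture library. Per total count, the 304 counts of M11 and M12 stood 63.5 times as high as the 6 counts of M9 and M10 (95% exact binomial interval 28.8 to 174, counting error only), and the fitted log2 fold change was -5.91 ± 0.95 (SE), -4.58 without M11. Against a floor of 3 counts in the third library, Lyz2 was at least 107-fold lower there than in M11 and M12 together, and at least 43.0-fold lower than in M12. Lyz2 (ENSMUSG00000069516) lies on chromosome 10, minus strand, 117277331 to 117282321. The Paneth cell lysozyme Lyz1 is identical to Lyz2 at 422 of 444 coding bases, so the split of reads between them is uncertain; Lyz1 had 1 (M11) and 4.06 (M12) estimated counts alone and 0 in the 3 co-culture libraries, and the pair sums to 68 in M12.

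Of 7 tested leukocyte markers, none passed the test (edgeR). At an unadjusted p under 0.05, 1 was higher and 1 lower, against 2779 of all 15899 genes tested. By limma-voom 0 were called and by DESeq2 1, higher, against 1329 of all 16918 genes DESeq2 tested. Of the 7 markers, 5 had a higher fitted level in M9 and M10, unlike Lyz2, and 2 a lower one. Of the 31 leukocyte markers, 11 (M11) and 17 (M12) had no count alone, and 14 (M9), 16 (M10) and 24 (the third library) had none in co-culture; Lyz2 was also at 0 in the third library. Their summed level was 71.3 to 109 CPM alone and 80.4 to 88.2 CPM in co-culture. Csf1r gave 97.1% of the sum in the third library, and the neutrophil gene S100a9 gave 61.2% of it in M11. S100a9 itself had 66.95 CPM (M11) and 28.1 CPM (M12) alone and 14.1 (M9), 3.38 (M10) and 0.138 CPM (the third library) in co-culture, the same order as Lyz2 (-2.45 ± 0.73, adjusted p = 0.174, edgeR). Csf1r had 31.6 and 32.0 CPM alone and 32.8 (M9), 56.3 (M10) and 85.7 CPM (the third library) in co-culture. The 5 markers with a positive fold change were named after their values were seen. Mrc1 was at 1.97 ± 0.48 (4.25 and 5.54 CPM alone, 27.4 in M9, 11.2 in M10, 0.138 in the third library). Itgb2 was at 1.94 ± 0.87 and Cd68 at 0.79 ± 0.35 (adjusted p = 0.112 for Mrc1, then 0.336 and 0.324, edgeR). Csf1r was at 0.473 ± 0.275 and Itgam at 0.213 ± 0.982 (adjusted p = 0.463 and 0.946, edgeR). Ptprc, which marks all leukocytes, had 8 and 3 counts alone and 4, 3 and 0 in M9, M10 and the third library, and the complement gene C1qa had 4 and 0, then 2, 0 and 0. The part of leukocyte RNA in the Lyz2 result was not tested.

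Icam1, the endothelial and epithelial ligand for leukocyte integrins, was tightly matched in the organoids alone. Alone it had 181 CPM (M11) and 178 CPM (M12), and in co-culture 63.9 (M9), 80.9 (M10) and 163 CPM (the third library). M9 and M10 were below the organoids alone, with a fitted log2 fold change of -1.32 ± 0.17 (SE), but the third library differed from the mean of the organoids alone by only -0.14. That difference was -0.04 with no scaling beyond total counts. Icam1 (ENSMUSG00000037405) lies on chromosome 9, plus strand, 21015985 to 21028817, and the antisense gene Gm47079, which overlaps 511 bases of it, had at most 18.25 counts in a library. Among 10 tested genes for other leukocyte adhesion ligands, 2 had a higher fitted level in M9 and M10 and 8 a lower one. EdgeR called 0, with 5 past an unadjusted p of 0.05 (1 higher, 4 lower), against 2779 of all 15899 genes tested. Of these ligands limma-voom also called 0, and DESeq2 called 1 in each direction, against 1329 of all 16918 genes it tested. The most abundant were Cd44 (-0.63 ± 0.38, adjusted p = 0.471) and F11r (-0.34 ± 0.17, adjusted p = 0.391). Icam2, the constitutive endothelial form, had at most 3 counts in any library.

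Tnfaip3, which encodes the ubiquitin-editing enzyme A20 that limits NF-kappaB signalling, did not separate M9 and M10 from the organoids alone. Organoids alone had 157 CPM (M11) and 258 CPM (M12), and the co-cultures 167 (M9), 128 (M10) and 103 CPM (the third library). M9 lay above M11, and the third library was the lowest of the 5. The fitted log2 fold change was -0.50 ± 0.28 (SE), -0.81 without M11 and -0.10 without M12, and the third library differed by -0.97. Tnfaip3 (ENSMUSG00000019850) lies on chromosome 10, minus strand, 19000910 to 19015657. Otud7b, a related deubiquitinase, had 93.4 and 115 CPM alone and 85.4 (M9), 97.6 (M10) and 70.4 CPM (the third library) in co-culture, and did not pass the test (log2 fold change -0.20 ± 0.17, adjusted p = 0.629, edgeR).

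**Figure D2:**
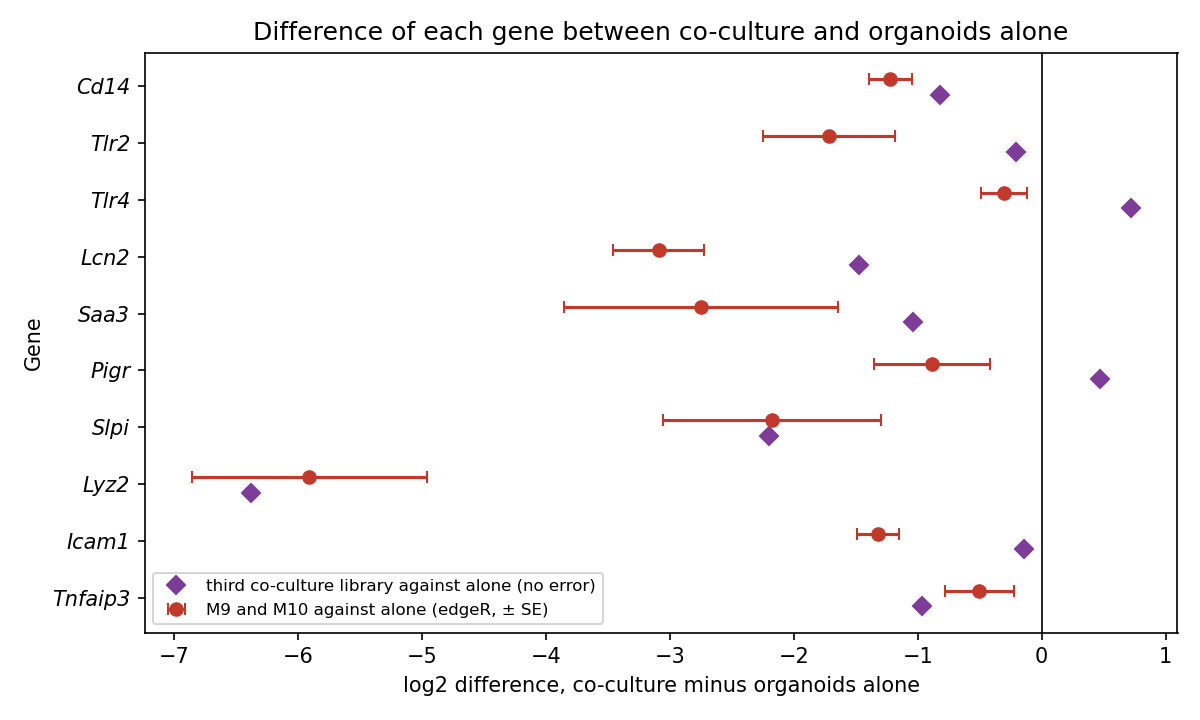
Log2 difference of each gene from the organoids alone; red points with bars are M9 and M10 (edgeR fit with its standard error) and purple diamonds the third co-culture library, which has no error and whose Lyz2 point, from 0 counts, depends on the prior count. Red points run from -0.30 for Tlr4 to -5.91 for Lyz2, and the third library lies on the positive side for Tlr4 (0.72) and Pigr (0.47).

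The third library gave a different order of differences. It was below the mean log2 level of the organoids alone for 8 of the 10 genes, as it was for 50.4% of 14686 genes, with a median difference of -0.90 over the 10 and -0.01 over all. It lay below both libraries alone for 7 genes, between them for Tlr2 and above both for Tlr4 and Pigr. For 6 genes, Cd14, Lcn2, Saa3, Icam1, Lyz2 and Slpi, all 3 co-culture libraries were below both libraries alone, which held for 16.5% of all genes in the joined table. These values share M11 and M12 with the comparison of M9 and M10 and have no replicate of their own. The third library was counted on RefSeq genes and the other 4 on Ensembl genes, and the part of that difference in its values was not tested.

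Per kilobase of merged exons of all annotated transcripts, the genes covered a wide range in the organoids alone. Mean CPM per kilobase was 1286 for Lcn2, 358 for Cd14, 41.1 for Icam1, 28.7 for Tnfaip3, 6.82 for Slpi, 5.13 for Tlr4, 4.43 for Lyz2, 4.01 for Saa3, 2.63 for Pigr and 1.37 for Tlr2. Down to Tlr4, neighbours in this order did not overlap between M11 and M12. Lyz2, from 1.76 to 7.10, overlapped Slpi, Tlr4, Saa3 and Pigr, and Saa3 overlapped Pigr. In co-culture, M9 had 202 CPM per kilobase of Lcn2 and 169.9 of Cd14, and the third library 460.1 and 202, while in M10 Lcn2, at 102, was below Cd14, at 139.

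Genes of the same pathways outside the 10 were read from the same edgeR fit, in 4 lists with 138 genes, of which 100 were tested. None was called higher, and 8 of the 100 fell, against 1.25% of all genes tested: Zc3h12a of the NF-kappaB list, Hp, Crp, Il1r1 and Il1rap of the acute-phase list, and Pglyrp1, Dmbt1 and Ltf of the mucosal list. At an unadjusted p below 0.05 (edgeR), higher genes numbered 5 in the Toll-like receptor, 1 in the NF-kappaB, 1 in the acute-phase and 2 in the mucosal list. Lower genes numbered 5, 8, 13 and 5 in the same order, and 2779 of all 15899 genes tested were below that p. DESeq2 called 1, 0, 1 and 0 higher and 2, 5, 10 and 4 lower, against 644 higher and 685 lower of all 16918 genes it tested. All 8 edgeR calls were lost without M12 and with all 5 libraries in the fit, and all but that of Hp were lost without M11. Those of Hp and Ltf were also lost without M9, without M10 and by limma-voom. In the third library the list medians were 0.03 (Toll-like receptor), -0.35 (NF-kappaB), -0.01 (acute phase) and -0.41 (mucosal) on the log2 scale, with no test. The lists were written with earlier results of these libraries known.

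The Toll-like receptor pathway list, from receptors to adaptors and kinases, showed no called change in 26 tested genes (5 higher and 5 lower at an unadjusted p under 0.05; limma-voom called 0, DESeq2 1 higher and 2 lower), with a median log2 fold change of -0.06. Its most abundant genes were Hsp90b1, the chaperone that folds Toll-like receptors (-0.11 ± 0.14, adjusted p = 0.768), and Lbp. In the NF-kappaB core and feedback list, 1 of 35 tested genes fell and 34 did not pass, with a median of -0.23 and a negative sign in 27. Zc3h12a, the RNase regnase-1 that degrades inflammatory mRNAs, had 134 CPM (M11) and 178 CPM (M12) alone and 64.6 (M9), 57.4 (M10) and 36.9 CPM (the third library) in co-culture, a log2 fold change of -1.37 ± 0.20 (adjusted p = 0.0348, edgeR). Tnfaip2 and Ier3, the most abundant, were at -0.32 ± 0.17 (adjusted p = 0.417) and -0.73 ± 0.17 (adjusted p = 0.102). Nfkbia, the NF-kappaB inhibitor, was looked at after its values were seen: it had 260.1 and 262 CPM alone and 180.3 (M9), 90.4 (M10) and 110.5 CPM (the third library) in co-culture (-0.95 ± 0.33, adjusted p = 0.218).

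Acute-phase genes had the most negative median of the 4 lists, -1.77 over 19 tested genes, of which 4 fell and 15 did not pass. Crp, the C-reactive protein gene, had 10.5 and 11.2 CPM alone, 1.07 (M9) and 1.01 CPM (M10) in the fitted co-cultures, a log2 fold change of -3.39 ± 0.34 (adjusted p = 0.0182, edgeR), but 10.8 CPM in the third library. Il1rap, the accessory chain of the interleukin-1 receptor, fell by 4.21 ± 0.58 on the log2 scale (adjusted p = 0.033), from 26.4 and 24.3 CPM to 2.14 and 0.614, and was at 1.83 CPM in the third library. The receptor chain Il1r1 had 165 and 156 CPM alone and 75.6 (M9) and 76.8 CPM (M10) in the fitted co-cultures (-1.08 ± 0.14, adjusted p = 0.0293), yet 378 CPM in the third library. Hp, the plasma haptoglobin gene, differed widely between the libraries alone, at 16.8 and 136 CPM, and had 0.534 CPM (M9), 0.307 CPM (M10) and 19.6 CPM (the third library) in co-culture (-7.51 ± 1.22, adjusted p = 0.046). Alb, the hepatocyte marker called lower, had 17.2 and 53.3 CPM alone and 0.157 (M9), 0.277 (M10) and 66.4 CPM (the third library) in co-culture (-7.33 ± 0.76, adjusted p = 0.0186, edgeR), a call lost without M12, M9 or M10, by limma-voom and with all 5 libraries. Cp and Il1rn, the most abundant of the list, were at -2.66 ± 0.70 and -0.72 ± 0.56 and did not pass (adjusted p = 0.132 and 0.584, edgeR). Cp had 594 and 797.5 CPM alone and 182 (M9), 38.5 (M10) and 1684 CPM (the third library) in co-culture. Il1rn had 309 and 593 CPM alone and 414 (M9), 136 (M10) and 74.4 CPM (the third library) in co-culture.

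Mucosal defence genes outside the 10 were mixed, with 3 of 20 tested genes lower, none higher and a median of 0.07. Pglyrp1, a peptidoglycan recognition protein, had 776 and 635 CPM alone and 206 (M9), 231 (M10) and 44.1 CPM (the third library) in co-culture, a log2 fold change of -1.70 ± 0.17 (adjusted p = 0.0176, edgeR). Dmbt1, a scavenger receptor protein of mucosal secretions, had 353 and 490.0 CPM alone and 52.1 (M9), 26.4 (M10) and 218 CPM (the third library) in co-culture (-3.43 ± 0.38, adjusted p = 0.0208). Ltf, the iron-binding lactoferrin, had 317 and 190.1 CPM alone and 70.3 (M9), 90.3 (M10) and 1.04 CPM (the third library) in co-culture (-1.67 ± 0.28, adjusted p = 0.049). The most abundant genes, Muc1 and the hydrogen peroxide producing oxidase Duox2, were at 0.04 ± 0.15 (adjusted p = 0.923) and 0.34 ± 0.21 (adjusted p = 0.489). In the third library Muc1 had 1096 CPM, against 1019 and 902.7 alone, but Duox2 had 102.7 CPM, against 683.2 and 517.1 alone.

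Single libraries weighed differently on the 10 genes. The fitted differences of Cd14, Tlr4 and Icam1 stayed between -1.38 and -1.07, between -0.33 and -0.26, and between -1.49 and -1.16 when each of the 4 libraries was left out in turn. Those of Saa3 and Slpi depended most on whether M9 or M10 was kept. M10 was the lower of the 2 for 8 of the 10 genes, all but Icam1 and Pigr. No gene changed sign in these 4 fits. For all but Pigr and Tnfaip3 that was built in, because both M9 and M10 lay below both M11 and M12. Among the called genes, Lcn2, Cd14 and Icam1 lost their calls without M11 or without M12, and Lyz2 without any one of the 4 libraries and by limma-voom. With all 5 libraries in one fit none of the 10 was called, and the fitted differences were -1.07 for Cd14, -2.34 for Lcn2 and -0.81 for Icam1.

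**Figure D3:**
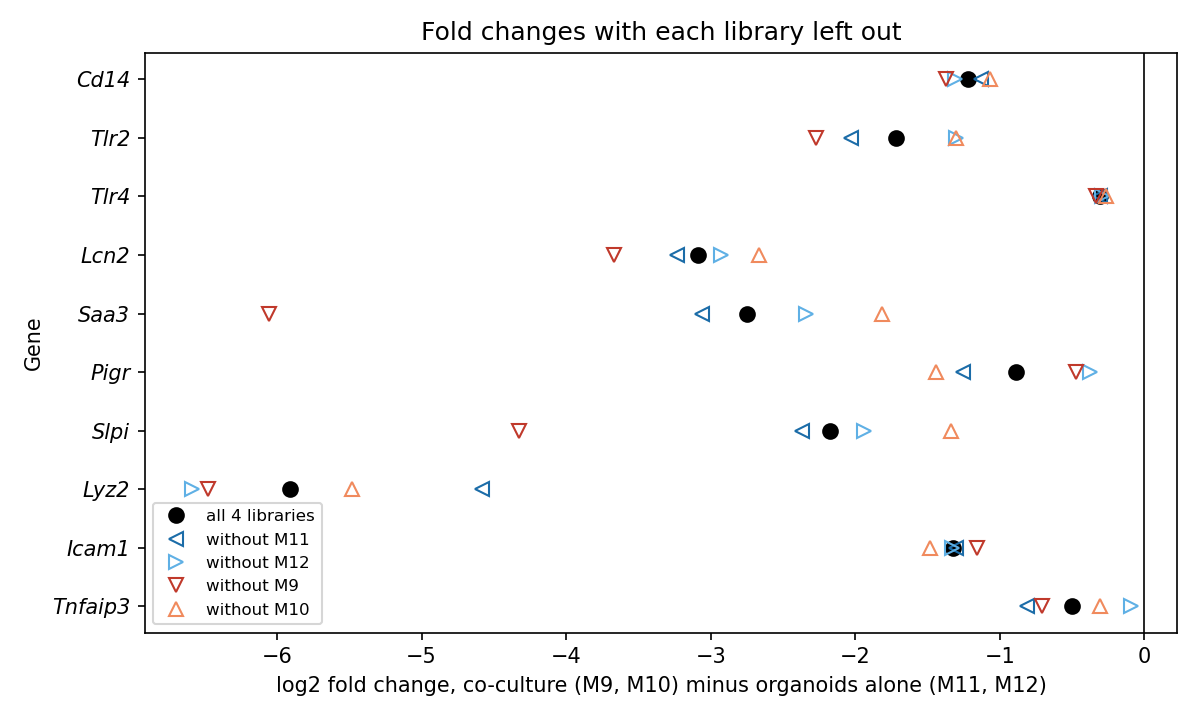
Fitted log2 fold change of each gene with all 4 libraries (black) and with each library left out (open triangles). Every point lies below 0, which was built in for all genes but Pigr and Tnfaip3. Saa3 runs from -1.82 without M10 to -6.06 without M9, while Tlr4 stays between -0.33 and -0.26.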

How the data were processed

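Stranded libraries of total RNA, with ribosomal RNA removed, were sequenced, per the labels' protocols. Per the submitters' processing notes, the tools were StringTie 2.1.3b, Bowtie2 2.3.4.1, HISAT2 2.1.0, FastQC 0.11.7 and Trimmomatic 0.38 and the builds mm10 and GRCh37, none with a stated role. The counting tool, its use of strand and the gene annotation: not given in the sources used here. The authors deposited estimated counts per Ensembl gene for 4 libraries, per the file headers, a gene's row being repeated for each transcript biotype. One row was kept for each of 52029 genes, and counts were rounded. Of the third co-culture library, whole-number counts per RefSeq gene were deposited, per the file headers, under a column name with a library number that differs from its record; the record was followed. It was joined by symbol for 30831 genes, with 91.8% of its counts, mitochondrial genes being named differently. Columns of other units were not used.

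Columns M11, M12, M9 and M10 name the group but not the sample. These 4 libraries were fitted in R 4.3.3 with edgeR 4.0.16 (genes kept by filterByExpr, TMM scaling, robust quasi-likelihood test, Benjamini-Hochberg over all 15899 genes tested, threshold 0.05); the standard error is the absolute log2 fold change over the square root of F. CPM values are TMM-scaled over the 5 joined libraries, with prior count 2 for log2 differences of the third library, which have no test. Libraries of a pair differed by more than counting noise (chi-square per degree of freedom 36.1 for M11 and M12, 101.8 for M9 and M10). The fit was checked on counts simulated with a common dispersion of 0.07 for every gene and both groups. That check did not cover noise that differs between genes or between the groups. Alternatives were other scalings and filters, DESeq2 1.42.0, limma-voom (limma 3.58.1), each library left out, which leaves 1 library in an arm that is assumed to vary like the other group, and all 5 libraries. Positions, exon lengths, overlaps and coding sequences are from GENCODE M21 (GRCm38), aligned with Biopython 1.88; promoters are from RefSeq (GRCm38.p6). The 10 genes, the lists and the motifs were chosen with earlier results of these data known. Named genes are the 10, up to 4 called genes per list by smallest p, the 2 most abundant per list, and set partners of the 10; not every gene the rule took among markers is printed.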

Additional observations from a re-analysis of the deposited data

How the results depend on the processing

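Over all genes edgeR called 356, against 1404 without a low-count filter, 1329 with DESeq2, 2 with all 5 libraries, and 0 (without M12) to 2619 (without M9) with 1 library left out; without M11 it was 50 and without M10 it was 1114. The fit without M12 had 1438 genes at an unadjusted p under 0.05. In the 4 pathway lists it called 8, against 24 without a low-count filter, 23 with DESeq2, 0 with all 5 libraries, and 0 (without M12) to 31 (without M9) with 1 library left out. The median over the 10 genes, -1.52, was -1.06 with all 5 libraries and ran from -1.82 (without M9) to -1.32 (without M12). The cause was not tested, beyond the change in libraries or genes tested. Other scalings, the stricter filter and limma-voom kept both counts within 1.5 times. Of the 120 alternative values of the 10 genes, 108 moved by less than the gene's spread between replicates. Other scalings, filters and tools refit the same 4 libraries, so little movement was built into those values. The spread was also wide for some genes, at 1.93 for Saa3 and 1.42 for Slpi on the log2 scale. No paired analysis was possible because the columns of the 4 libraries carry none of the replicate numbers of the titles. Counts of 13 or fewer (Saa3, Slpi and Lyz2 in M10, Lyz2 in M9) limit those values.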
